A study of Homo sapiens with 22 samples.

Results

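The sirtuins are a family of 7 genes, SIRT1 to SIRT7, which were taken from a table of 60675 genes by their gene names. Sirtuins remove acetyl groups and other acyl groups from lysine and consume NAD+ in each reaction. That cofactor sets them apart from KDAC6 and KDAC8, lysine deacetylases that use a zinc ion and were altered or inhibited in these cells. SIRT1, SIRT6 and SIRT7 are found mainly in the nucleus, SIRT2 mainly in the cytoplasm, and SIRT3, SIRT4 and SIRT5 in mitochondria. SIRT2 and KDAC6 are both known to deacetylate alpha-tubulin.

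RNA was sequenced from 22 cultures of HT1080, a human fibrosarcoma cell line. The WT group had 4 samples of unaltered, untreated cells. Cells named KDAC6H216A, KDAC6H611A and KDAC8H143A carried a change of an active-site histidine to alanine at the endogenous gene, in the first or second catalytic domain of KDAC6 or in the single domain of KDAC8, with 4 samples each. KDAC6H216A was a pool of 3 independently made lines, whereas the other mutant lines each grew from a single colony, and KDAC8H143A also carried an unintended inserted base in an intron. Wild-type cells were also treated with Tubastatin A, a KDAC6 inhibitor, at 1 µM or with PCI-34051, a KDAC8 inhibitor, at 5 µM for 2 days, with 3 samples each. No vehicle-treated group was analysed here, so untreated WT was the control for all 5 groups and the comparisons share these 4 libraries. The mutant lines were each compared with WT and with each other.

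Library totals ran from 5248960 to 8998521 expected counts in WT, from 6837484 to 12752476 in the KDAC6 mutants, from 11010779 to 17170493 in KDAC8H143A and from 24315844 to 29862658 with the inhibitors. Mitochondrial rRNA made up 20.8% to 23.9% of counts in WT. It was 0.0259% or less in every KDAC8H143A library and 0.00541% or less with either inhibitor. It was also low in KDAC6H216A replicate 1 (0.195%) and KDAC6H611A replicate 4 (0.173%), which stood apart from the other libraries of their groups. Among the defining markers, VIM was at 2083 CPM or more in all 22 libraries and ALB and KRT14 were at 0 in all 22, and 8 of the 9 fibrosarcoma and mesenchymal markers were at 27.5 CPM or more in every library. The exception was S100A4, at 3.26 CPM or less.

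In WT cells 6 of the 7 sirtuin genes were expressed at a low to moderate level and SIRT4 was close to undetected. Levels between genes are given as CPM per kilobase of exon (CPM per kb), after scaling over all 22 libraries. SIRT6 stood at 6.08 ± 0.93 CPM per kb (SD, n = 4) and SIRT1 at 5.10 ± 0.27. SIRT2 followed at 3.29 ± 0.25 and SIRT7 at 3.24 ± 0.40. SIRT3 was at 1.81 ± 0.16 CPM per kb and SIRT5 at 1.29 ± 0.15. The libraries of SIRT6 and SIRT1 overlapped, as did those of SIRT2 and SIRT7, while those of SIRT1 and SIRT2, of SIRT7 and SIRT3, and of SIRT3 and SIRT5 did not. Among 12297 protein-coding genes at 1 CPM or more in WT, the median level was 4.57 CPM per kb. SIRT6 lay at percentile 59.5 of these genes and SIRT5 at percentile 19.2. When the length of the longest transcript was used instead, SIRT7 was at 5.77 CPM per kb and came between SIRT6 and SIRT1, so the order of these middle ranks depends on the length chosen.

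SIRT4, a mitochondrial sirtuin with weak deacetylase activity, had 0 to 11 expected counts per library and 68 counts in all 22. Only 7 libraries held more than 3 counts, none of them WT or KDAC6H216A. A floor of 3 counts corresponded to 0.572 CPM in the shallowest library and 0.100 CPM in the deepest. The WT libraries held 2 counts in all, so a fall of SIRT4 could not be detected at this depth and no fold is given. SIRT4 did not pass the filter on low counts, and the tests below cover the other 6 members. With no filter, edgeR did not call SIRT4 in any comparison (adjusted p of 0.281 or more).

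**Figure D1:**
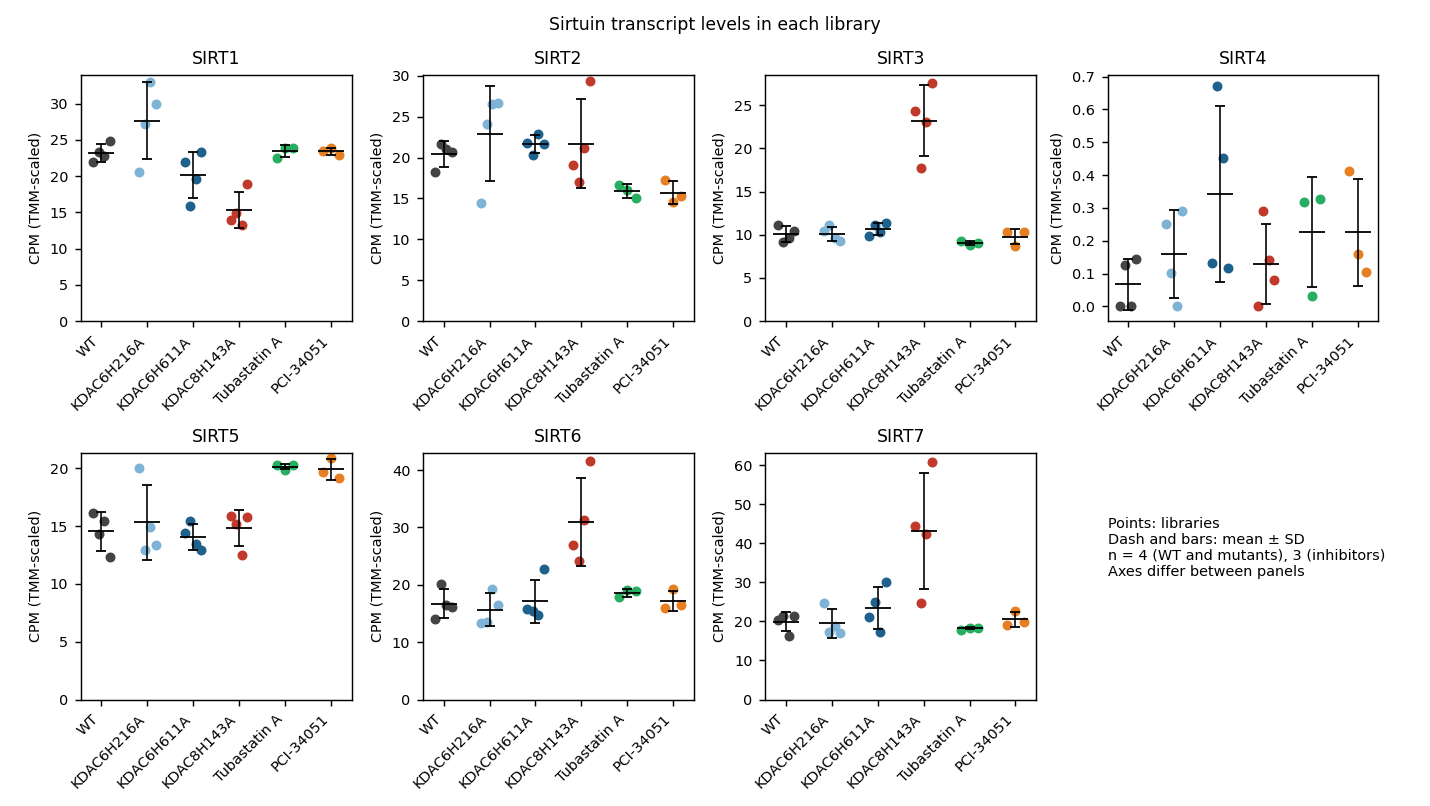
Sirtuin levels in every library. Each panel shows 1 gene, with TMM-scaled CPM on a linear y axis and the 6 groups along the x axis. Points are libraries, and the dash with bars is the mean ± SD. SIRT3, SIRT6 and SIRT7 of KDAC8H143A lie above WT, from 17.8, 24.2 and 24.7 CPM upward, and both inhibitor groups lie below WT for SIRT2 and above it for SIRT5.

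To determine whether loss of one KDAC6 domain changed sirtuin transcripts, each KDAC6 mutant was compared to WT. No sirtuin passed the test in either mutant. In whole cultures, a change in the make-up of the cells and a change in RNA per cell cannot be told apart. With edgeR's quasi-likelihood test at an adjusted p below 0.01, 0 of 6 were called in KDAC6H216A, where 0.834% of all 14500 tested genes were called, and 0 of 6 in KDAC6H611A, where 12.3% of 14725 were called. No sirtuin reached an unadjusted p below 0.05 in either comparison, and DESeq2 also called 0. The log2 fold changes ran from -0.19 to 0.16 in KDAC6H216A (adjusted p from 0.561 to 0.999) and from -0.17 to 0.26 in KDAC6H611A (adjusted p from 0.327 to 0.934). The number of all genes called depended on single libraries. In KDAC6H216A it fell to between 28 (without WT replicate 3) and 49 when any library but its own replicate 1 was left out. In KDAC6H611A it ran from 1122 of 15003 (without WT replicate 3) to 2908 of 14981 without its replicate 2, the library with the most mitochondrial rRNA (38.0%). The sirtuins gave 0 calls in each of these fits.

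SIRT1, a nuclear deacetylase of transcription factors and histones, varied among the KDAC6H216A libraries, at 20.5, 27.2, 33.0 and 29.9 CPM compared to 21.9 to 24.9 CPM in WT. Its lowest value came from replicate 1, the library with little mitochondrial rRNA. The same library had the lowest SIRT2, at 14.4 CPM against 24.2 to 26.6 CPM in the other 3, and the highest SIRT5, at 20.0 CPM against 12.9 to 15 CPM. Without replicate 1, the 6 members still gave 0 calls, although 3813 of 14638 genes were then called. Over the 8 edgeR fits that each left out 1 library, SIRT1 ran from 0.09 to 0.23 on the log2 scale (lowest adjusted p = 0.0341). SIRT7 ran from -0.30 to -0.03 in these fits (lowest adjusted p = 0.0327). In KDAC6H611A, SIRT7 was at 21.2, 25, 17.3 and 30.2 CPM, and its highest value was that of replicate 4, the library of that group with little mitochondrial rRNA. The part of these libraries in the spread was not tested. When the KDAC6 mutants were compared with each other, 0 of 6 sirtuins were called (9.93% of all genes), DESeq2 called 0, and 1 member, SIRT1, had an unadjusted p below 0.05.

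KDAC8H143A was the mutant line in which sirtuins passed the test against WT. SIRT3, SIRT6 and SIRT7 were higher and SIRT1 was lower than in WT, so 4 of 6 members were called. In this comparison 58.5% of all 16101 tested genes were called, 31.6% as higher and 26.9% as lower, so the count of members is near the background. SIRT2 and SIRT5 were not called. The same 4 members were the ones whose libraries did not overlap with WT, a property of 64.8% of tested genes.

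SIRT3 is the main deacetylase of mitochondrial enzymes. It was at 11.2, 9.11, 9.60 and 10.4 CPM in WT and at 24.4, 17.8, 23.0 and 27.6 CPM in KDAC8H143A. Every mutant library exceeded every WT library, and the log2 fold change was 1.26 ± 0.16 (SE, adjusted p = 3.42e-05). SIRT3 made up 9.62% ± 1.11 of the sirtuin counts in WT and 15.7% ± 1.1 in KDAC8H143A (SD, n = 4).

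SIRT7 acts in the nucleolus and on chromatin. Its level was 20.5, 21.5, 16.3 and 21.3 CPM in WT and 44.3, 24.7, 42.5 and 60.9 CPM in KDAC8H143A, and the fitted log2 fold change was 1.17 ± 0.23 (SE, adjusted p = 8.32e-04). Replicate 2 of the mutant lay close to WT while the other 3 were far above it. SIRT6, a chromatin-bound deacetylase linked to DNA repair and glycolytic genes, was at 14.1, 20.2, 16.5 and 16.1 CPM in WT and at 26.9, 24.2, 31.3 and 41.6 CPM in the mutant. Its groups did not overlap, and the log2 fold change was 0.93 ± 0.18 (SE, adjusted p = 6.17e-04).

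SIRT1 moved the other way, from 21.9, 23.3, 22.9 and 24.9 CPM in WT to 14, 15, 13.3 and 18.9 CPM in KDAC8H143A. All 4 mutant libraries were below all 4 WT libraries, and the log2 fold change was -0.56 ± 0.13 (SE, adjusted p = 0.00259). The call is close to the threshold and was lost in 1 of 8 fits that each left out 1 library, the one without KDAC8H143A replicate 1 (-0.52, adjusted p = 0.0104). On the scale of total counts alone, which moved the median of all genes to 0.36, the value was -0.28 (adjusted p = 0.0704). For SIRT2 the log2 difference was 0.13 ± 0.17 (SE, adjusted p = 0.505), and for SIRT5, a mitochondrial enzyme that removes succinyl and malonyl groups, it was 0.08 ± 0.14 (SE, adjusted p = 0.621).

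**Figure D2:**
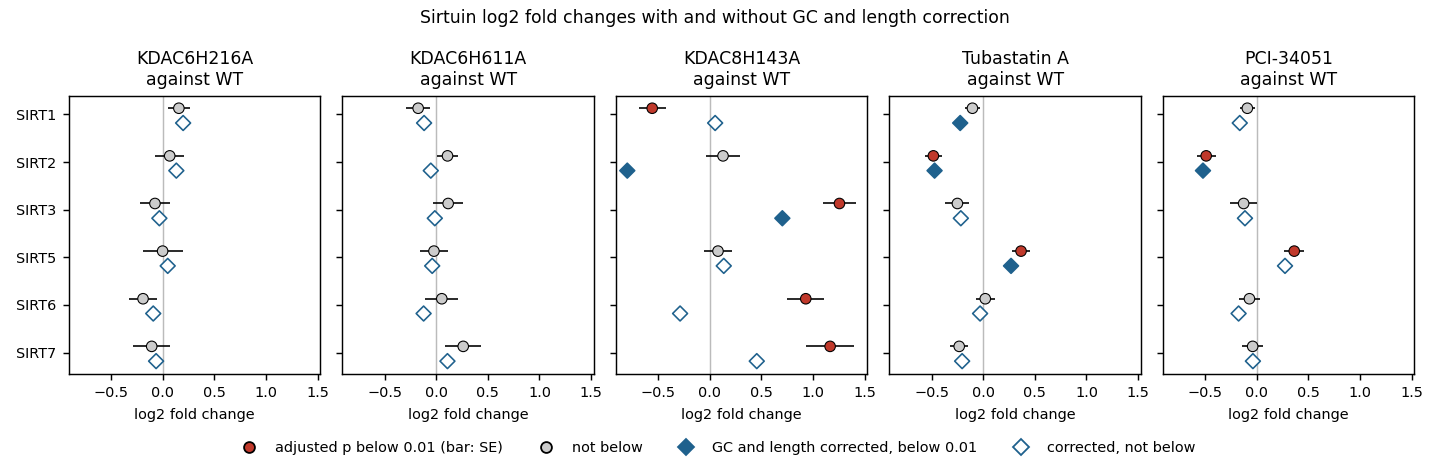
Log2 fold changes of the 6 tested sirtuins against WT, 1 panel per comparison. Circles with SE bars are the edgeR values (red below an adjusted p of 0.01) and diamonds the values after a GC content and gene length correction (filled below 0.01). In KDAC8H143A the correction moved SIRT6 from 0.93 to -0.29 and SIRT2 from 0.13 to -0.80.

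The KDAC8H143A libraries differed from WT in how counts depended on base composition. Relative to the WT mean, log2 CPM increased by 0.454 to 0.980 for each 10 points of GC content in the 4 KDAC8H143A libraries, compared to -0.0504 to 0.0422 in WT and -0.0805 to -0.0131 with the inhibitors. The KDAC6H611A library with little mitochondrial rRNA was at 0.246, above the other 3 of that group. Within KDAC8H143A, replicate 2 had the lowest slope and the lowest SIRT3, SIRT6 and SIRT7, and replicate 4 the highest slope and the highest of all 3. SIRT2 had the same lowest and highest replicates (17.0 and 29.4 CPM). SIRT1, at 40.6% GC, was also highest in replicate 4 (18.9 CPM) but lowest in replicate 3 (13.3 CPM). SIRT5 was highest in replicate 1 and lowest in replicate 3. The part of the slope in these values was not tested. Whether the slope belongs to the mutation, to the single colony of the line or to the preparation of these libraries cannot be told apart. This is because all 4 libraries of the line carry it. The same limit applies to the sirtuin values of this line.

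Among all genes tested in KDAC8H143A against WT, the median log2 fold change was -0.37 for genes of 40% to 45% GC and 1.03 for genes of 60% to 65% GC. The SIRT1 transcript has 40.6% GC, that of SIRT3 54.8%, that of SIRT7 56.5%, that of SIRT2 60.1% and that of SIRT6 64.9%. SIRT1, SIRT6 and SIRT7 lay between the quartiles of genes of like GC content. SIRT3 lay above them, 0.85 over the median of its bin, and SIRT2 below them, 0.90 under the median of its bin. SIRT2, SIRT3 and SIRT6 lie close to a bin edge, so these places depend on the bins. In the bin of 55% to 60% GC the quartiles were 0.16 and 1.35. SIRT3 at 1.26 would lie between those, and SIRT2 at 0.13 still below them. In the bin of 65% to 70% the lower quartile was 0.98, and SIRT6 at 0.93 would lie below it.

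After a per-library correction for GC content and gene length, SIRT3 remained higher in KDAC8H143A, with a log2 fold change of 0.70 (adjusted p = 5.09e-04). SIRT7 kept its direction but was no longer called (0.46, adjusted p = 0.0426). SIRT6 was at -0.29 (adjusted p = 0.0491) and SIRT1 at 0.05 (adjusted p = 0.789), so neither kept its call or its direction. SIRT2, not called before, became lower (-0.80, adjusted p = 5.03e-05). SIRT5 stayed without a call (0.14, adjusted p = 0.387). The number of members called was then 2, SIRT3 and SIRT2, where 7743 of all 16101 tested genes were called. SIRT3 was the member called in the same direction with and without the correction.

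**Figure D3:**
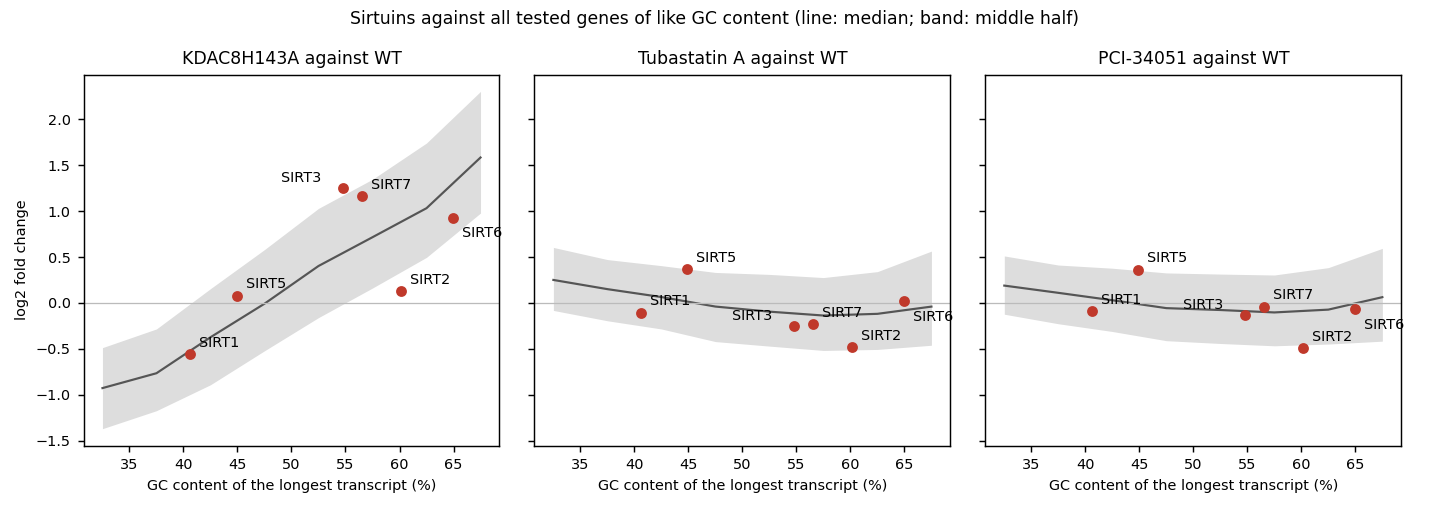
Log2 fold change against WT plotted by the GC content of each gene's longest transcript, for KDAC8H143A and both inhibitors. The line is the median and the band the range between quartiles of all tested genes in bins of 5 points, and red points are the sirtuins. In KDAC8H143A the median climbs from -0.93 in the bin of lowest GC content to 1.58 in that of the highest, with SIRT3 above the band and SIRT2 below it, and with the inhibitors the median stays between -0.14 and 0.25.

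The difference between KDAC8H143A and the KDAC6 mutants was tested directly. Compared to KDAC6H611A, SIRT3 was higher by 1.15 ± 0.17 on the log2 scale (SE, adjusted p = 1.44e-04), SIRT6 by 0.89 ± 0.20 (adjusted p = 0.00238) and SIRT7 by 0.91 ± 0.25 (adjusted p = 0.00787), so 3 of 6 members were called where 45.2% of all genes were. Without KDAC6H611A replicate 1, where 5899 of 17292 genes were called, SIRT3 was the 1 member called. The values of SIRT6 (0.84, adjusted p = 0.0106) and SIRT7 (0.87, adjusted p = 0.0258) stayed near those above. SIRT7 kept its call in 2 of 8 fits that each left out 1 library, with values from 0.66 to 0.93 in the 6 others. Compared to KDAC6H216A, 4 of 6 were called where 53.2% of all genes were. SIRT3 was higher by 1.2 ± 0.17 (adjusted p = 1.11e-04), SIRT7 by 1.15 ± 0.25 (adjusted p = 0.00165) and SIRT6 by 0.99 ± 0.19 (adjusted p = 8.75e-04), and SIRT1 was lower (-0.85 ± 0.17, adjusted p = 0.00114). With the GC content and length correction SIRT3 was still higher against both lines (0.75 against KDAC6H611A, 0.70 against KDAC6H216A) and SIRT2 was lower against both (-0.71 and -0.95). The other calls were lost. SIRT7 was at 0.38 (adjusted p = 0.131) against KDAC6H611A and 0.49 (adjusted p = 0.0583) against KDAC6H216A, SIRT6 turned to -0.14 and -0.24, and SIRT1 was at -0.16 (adjusted p = 0.475) against KDAC6H216A.

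Shares among the sirtuins do not depend on how libraries are scaled, but they carry any base composition slope of a library and were not corrected for GC content. No background over all genes was worked out for shares that do not overlap with WT. SIRT1 supplied 22.2% ± 1.1 of all sirtuin counts in WT (SD, n = 4) and 10.4% ± 1.8 in KDAC8H143A, where no library overlapped with WT. In KDAC6H611A the SIRT1 share was 15.3% to 20.9%, also below the 21.2% to 23.5% of WT in every library. SIRT7 supplied 18.9% ± 1.9 in WT and 28.3% ± 4.5 in KDAC8H143A. The share of SIRT2 was 17.9% to 20.7% in WT and 13.2% to 15.1% in KDAC8H143A, so it was lower in every mutant library although its CPM overlapped with WT. With Tubastatin A the SIRT2 share was 14.2% to 15.9% and the SIRT5 share 18.7% to 19.3%, compared to 11.7% to 15.8% for SIRT5 in WT. PCI-34051 gave 13.2% to 16.2% for SIRT2 and 18.4% to 19.0% for SIRT5.

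**Figure D4:**
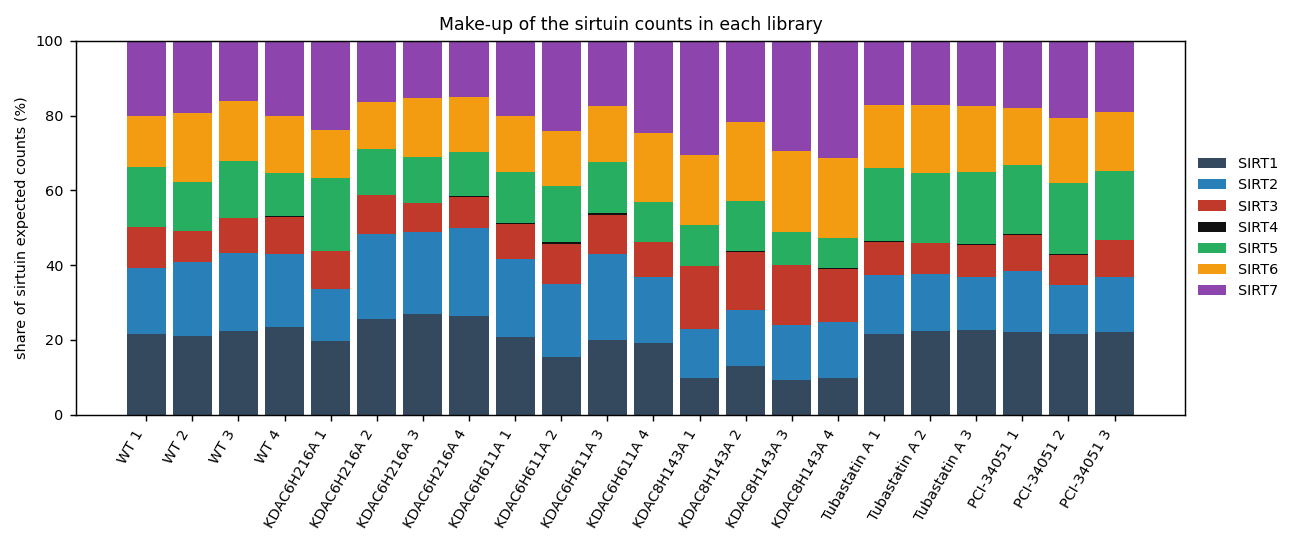
Share of each sirtuin in the sum of sirtuin expected counts, 1 stacked bar per library, in percent. The SIRT1 segment is 9.24% to 13.1% in the 4 KDAC8H143A libraries and 21.2% to 23.5% in WT, while the SIRT7 segment of KDAC8H143A reaches 31.4%.

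The inhibitors were compared to WT to ask whether blocking KDAC6 or KDAC8 for 2 days changed sirtuin transcripts. With each inhibitor SIRT2 was lower and SIRT5 higher, and the other 4 tested members were not called. Thus 2 of 6 members were called with Tubastatin A, where 57.9% of all 15246 tested genes were called, and 2 of 6 with PCI-34051, where 51.1% of 15346 were. The doses differed, so the values are given side by side without a comparison between the compounds.

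SIRT2 was at 18.2, 21.7, 21.1 and 20.7 CPM in WT. It was at 16.7, 16.1 and 15 CPM with Tubastatin A, and the fitted log2 fold change was -0.48 ± 0.08 (SE, adjusted p = 3.28e-05). With PCI-34051 it was at 17.3, 14.5 and 15.3 CPM, and the fitted log2 fold change was -0.49 ± 0.09 (SE, adjusted p = 1.72e-04). All 6 treated libraries were below all 4 WT libraries. On the scale of total counts alone, the log2 fold change of SIRT2 was -0.13 (adjusted p = 0.155) with Tubastatin A and -0.10 (adjusted p = 0.338) with PCI-34051. That scale moved the median of all genes to 0.35 and 0.38. With all 6 groups in 1 fit, the adjusted p of SIRT2 was 0.106 with Tubastatin A and 0.0938 with PCI-34051. That fit called 4607 and 4341 of 18480 genes.

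SIRT5 was at 16.1, 14.4, 15.4 and 12.3 CPM in WT. With Tubastatin A it was at 20.3, 19.9 and 20.3 CPM, and the fitted log2 fold change was 0.37 ± 0.09 (SE, adjusted p = 0.00126). With PCI-34051 it was at 19.7, 20.9 and 19.2 CPM, and the fitted log2 fold change was 0.36 ± 0.10 (SE, adjusted p = 0.00349). All 6 treated libraries exceeded all 4 WT libraries. Leaving out WT replicate 2, WT replicate 4 or PCI-34051 replicate 2 ended the SIRT5 call with PCI-34051, with an adjusted p of up to 0.0205 and log2 fold changes of 0.29 to 0.35. The GC content and length correction also ended it (0.27, adjusted p = 0.0182), but not the call with Tubastatin A (0.27, adjusted p = 0.00966). A replicate block ended both calls (0.29 with each inhibitor).

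Libraries not overlapping with WT were found for 63.9% of tested genes with Tubastatin A and for 59.1% with PCI-34051. The CPM values are scaled over all 22 libraries, whereas each fit scales its own pair of groups, which shifted log2 fold changes by -0.12 with Tubastatin A and by -0.10 with PCI-34051 relative to the CPM values. On the pair's own scale SIRT1 was also below WT in every treated library of both groups, and SIRT3 in those of Tubastatin A. For SIRT7 the log2 difference was -0.23 ± 0.09 with Tubastatin A (SE, adjusted p = 0.0284) and -0.04 ± 0.10 with PCI-34051 (SE, adjusted p = 0.756). SIRT1, SIRT3 and SIRT6 had adjusted p values of 0.0625 or more with Tubastatin A and 0.292 or more with PCI-34051. Other settings gave calls with Tubastatin A. SIRT1 was called lower after the GC content and length correction (-0.22, adjusted p = 0.00850), SIRT7 lower without WT replicate 3 (-0.32, adjusted p = 0.00243), and SIRT6 higher on the scale of total counts (0.37, adjusted p = 0.00121), which moved the median of all genes to 0.35. The treated libraries were deeper than every WT library and held 0.00541% or less mitochondrial rRNA, compared to 20.8% to 23.9% in WT. Depth, this difference in make-up and treatment therefore cannot be told apart. KDAC6H216A replicate 1, untreated and with little mitochondrial rRNA, had SIRT2 at 14.4 and SIRT5 at 20.0 CPM. KDAC6H611A replicate 4, also with little of it, had 21.7 and 12.9 CPM. In KDAC8H143A, low in it too, neither gene was called. The part of mitochondrial rRNA was not tested. After thinning all libraries to the smallest total, SIRT2 was still called with both compounds and SIRT5 with neither, although its log2 fold change was 0.38 (adjusted p = 0.0110) with Tubastatin A and 0.30 (adjusted p = 0.0524) with PCI-34051.

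HDAC6 and HDAC8, the genes that encode KDAC6 and KDAC8, were read in the same libraries. HDAC6 was at 14.2 ± 3.3 CPM in WT and 6.37 ± 0.75 CPM in KDAC6H216A (SD, n = 4), and the fitted log2 fold change was -1.25 ± 0.18 (SE, adjusted p = 0.00540). It was not called in KDAC6H611A (-0.10, adjusted p = 0.747). In KDAC8H143A HDAC6 was not called (0.17, adjusted p = 0.391), but was called lower after the GC content and length correction (-0.63, adjusted p = 0.00210). The study, which used DESeq2, reported no significant KDAC6 change in its lines by RNA sequencing. Its qPCR gave slightly lower KDAC6 in KDAC6H216A and KDAC8H143A. HDAC8 was at 12.8 ± 0.8 CPM in WT and 12.6 ± 1.4 CPM in KDAC8H143A (adjusted p = 0.847). A point mutation need not alter the level of its transcript, so these values do not check the labels.

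The sirtuin genes lie on 6 chromosomes, and 3 of them share a start region with a gene on the opposite strand. In GENCODE 44 on GRCh38, SIRT3 (chr11:215030-236931, minus strand) starts 35 bases from PSMD13, which encodes a proteasome subunit. SIRT6 (chr19:4174109-4182566, minus strand) starts 123 bases from ANKRD24, and SIRT2 (chr19:38878555-38899862, minus strand) overlaps NFKBIB, an inhibitor of NF-kappaB, with 162 bases between their starts. SIRT1 lies at chr10:67884656-67918390 and SIRT5 at chr6:13574227-13615158, both on the plus strand. SIRT7 (chr17:81911939-81921323, minus strand) overlaps MAFG on the same strand, and the ends of SIRT3 and RIC8A overlap on opposite strands. The study's methods name default parameters for Bowtie2 and RSEM, without stating how counts were split over such overlaps or by strand. The counts of SIRT7, SIRT2 and SIRT3 are therefore uncertain where they overlap.

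The sequences below show these start regions. They were read from RefSeq windows of 300 bases on GRCh38.p14 (250 before and 50 after the start), which matched 6 of the 7 sirtuins, SIRT7 having no entry. Each is written 5′ to 3′ on the gene's own strand, and capitals mark matches on either strand to CACGTG (an E-box), GGGCGG (a GC box) or CGCATGCG (the core of the NRF1 palindrome). The SIRT1 stretch at chr10:67884521-67884620 holds 2 E-boxes and 4 GC boxes that do not overlap. An E-box was present in 7.26% of all 35116 windows and a GC box in 45%. SIRT5 (chr6:13574451-13574480) and SIRT6 (chr19:4182655-4182684) each hold the NRF1 core, and the SIRT5 window belongs to a RefSeq start that lies inside the GENCODE gene. The core was present in 2.02% of windows, and in SIRT6 it falls between the starts of SIRT6 and ANKRD24. The SIRT3 stretch at chr11:236932-236965 is the whole gap between SIRT3 and PSMD13 and holds none of these letters. Also searched on both strands of the windows were CCAAT (34.6% of windows), TATAAA (11.5%), CCGGAAG (10.3%) and TGACGTCA (1.85%), none of which is whole in the stretches shown. These matches are a description of letters and were not related to any readout.
SIRT1: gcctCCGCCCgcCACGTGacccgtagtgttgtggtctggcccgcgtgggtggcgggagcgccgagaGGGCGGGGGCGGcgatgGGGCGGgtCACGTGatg
SIRT3: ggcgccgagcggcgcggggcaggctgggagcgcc
SIRT5: ggtccgcggtgCGCATGCGcggcccggcct
SIRT6: tcagcaagaggCGCATGCGccttgccgtgg

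The genes that share a start region did not all move with their sirtuin. PSMD13 was at 96.1 CPM in WT and 90.1 CPM in KDAC8H143A (log2 fold change -0.04 ± 0.09, SE, adjusted p = 0.693), while SIRT3, on the other side of the 34-base gap, was higher. ANKRD24 was at 0.374 to 0.620 CPM in WT, close to the floor of 3 counts, and at 1.60 to 4.74 CPM in KDAC8H143A. It passed the filter on low counts in 3 of the 5 comparisons, those in which the other group was highest, so no fold is set beside that of SIRT6. NFKBIB was higher in KDAC8H143A (0.88 ± 0.17, adjusted p = 5.88e-04), where SIRT2 was not, and was at 0.04 after the correction. MAFG rose by 0.87 ± 0.10 on the log2 scale in KDAC8H143A (adjusted p = 2.24e-05), next to SIRT7 at 1.17, and was not called after the correction (0.18, adjusted p = 0.0777).

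With both inhibitors the neighbours of SIRT5 were lower, while SIRT5 was higher. NOL7, which starts beyond the end of SIRT5, had a log2 fold change of -0.52 ± 0.08 with Tubastatin A (SE, adjusted p = 8.61e-06) and -0.58 ± 0.07 with PCI-34051 (adjusted p = 8.32e-07). GFOD1, on the far side, had -0.45 ± 0.11 (adjusted p = 0.00152) and -0.59 ± 0.13 (adjusted p = 7.87e-04). PCYT2, an enzyme of phosphatidylethanolamine synthesis that lies 506 bases past SIRT7, fell from 47.5 CPM in WT to 17.3 CPM with Tubastatin A (-1.58 ± 0.09, adjusted p = 1.35e-11) and 21.6 CPM with PCI-34051 (-1.25 ± 0.08, adjusted p = 6.05e-10), while SIRT7 was not called with either.

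Genes whose log2 CPM followed each sirtuin most closely over the 22 libraries were ranked by Pearson's r among 10625 protein-coding genes at a mean of 5 CPM or more, as a description. SIRT3 was followed by SRRM2, DENND4B and SETD1B, each with r of 0.980, and SIRT7 by SGSM3 (0.968), PPAN (0.960) and FCHSD1 (0.959). SIRT6 was followed by COMTD1 (0.945), ABHD17A (0.921) and LMF2 (0.919). SIRT1 was followed by HSPH1 (0.945), CLINT1 (0.942) and POLR1D (0.941). SIRT2 went with SARS2 (0.911), UCK1 (0.901) and USF1 (0.891), and SIRT5 with ATRX (0.886), CCDC14 (0.871) and DLG1 (0.868). Among the sirtuins, r was 0.895 for SIRT3 and SIRT7, 0.832 for SIRT6 and SIRT7, -0.733 for SIRT1 and SIRT3 and -0.765 for SIRT2 and SIRT5. The libraries share groups and base composition slopes. The 3 genes closest to SIRT6 have 65.2% to 66.6% GC, near the 64.9% of SIRT6, but other members matched less closely. Those of SIRT5 (44.9% GC) have 36.6% to 41.8%. Those of SIRT1 (40.6%) have 39.6% to 48.3%, and those of SIRT2 (60.1%) have 54.4% to 61.4%. They reach 61.5% for SIRT3 (54.8%) and 62.3% for SIRT7 (56.5%). The part of base composition in these ranks was not tested.

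Sirtuin activity depends on NAD+, so 21 genes of NAD synthesis, transport and nicotinamide clearance were read, of which 12 passed the filter. In KDAC8H143A 3 rose and 4 fell (58.3% of those tested, beside 58.5% of all genes), with a median log2 fold change of -0.46 beside 0.08 for all genes. After the correction, with which 7743 of 16101 genes were called, 1 was called higher and 2 lower. The median was then -0.10 beside -0.03 for all genes. NAMPT, the rate-limiting enzyme of the salvage route from nicotinamide, fell from 98.0 ± 5.2 CPM in WT to 38.8 ± 7.3 CPM (-1.29 ± 0.12, SE, adjusted p = 5.66e-06), and it was still lower after the GC content and length correction (-0.59, adjusted p = 1.92e-04). NAPRT, which starts the route from nicotinic acid, rose from 10.4 ± 0.9 CPM to 58.4 ± 28.5 CPM (2.54 ± 0.33, adjusted p = 4.30e-05) and stayed higher after the correction (0.90, adjusted p = 0.00145). NADSYN1, the last enzyme of that route, rose by 1.12 on the log2 scale and NADK, the NAD kinase, by 0.82, and after the correction neither was called (0.19 and 0.15). SLC25A51, the mitochondrial NAD+ carrier, fell (-0.62 ± 0.16, adjusted p = 0.00405), as did NMRK1, a nicotinamide riboside kinase (-0.90, adjusted p = 0.00843). After the correction SLC25A51 was still called (-0.80, adjusted p = 7.73e-04) and NMRK1 was not (-0.44, adjusted p = 0.107).

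With each inhibitor, 3 of the 12 NAD genes rose and 4 fell (58.3%, beside 57.9% of all genes with Tubastatin A and 51.1% with PCI-34051). NAPRT, NADSYN1, NADK and KYNU were those that fell, and NAMPT and NMRK1 rose with both. NAPRT fell to 2.89 ± 0.08 CPM with Tubastatin A (-1.95 ± 0.15, SE, adjusted p = 1.20e-09) and to 3.92 ± 0.13 CPM with PCI-34051 (-1.50 ± 0.15, adjusted p = 1.06e-07). NAMPT rose to 141 ± 1 CPM with Tubastatin A (0.41 ± 0.05, adjusted p = 2.84e-07) and to 146 ± 9 CPM with PCI-34051 (0.48 ± 0.05, adjusted p = 5.90e-07). The rise with Tubastatin A was not called after the correction (0.10, adjusted p = 0.0932). KYNU, a kynurenine pathway enzyme, fell by 1.48 with Tubastatin A and by 1.15 with PCI-34051 on the log2 scale. In KDAC6H611A 2 of 12 rose (16.7%, beside 12.3% of all genes), NMNAT1 (1.29 ± 0.15, adjusted p = 6.09e-05) and NMNAT2 (0.84, adjusted p = 0.00209), both of which join the nucleotide to make NAD+. In KDAC6H216A 0 of 12 were called by edgeR, and 3 had an unadjusted p below 0.05.

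**Figure D5:**
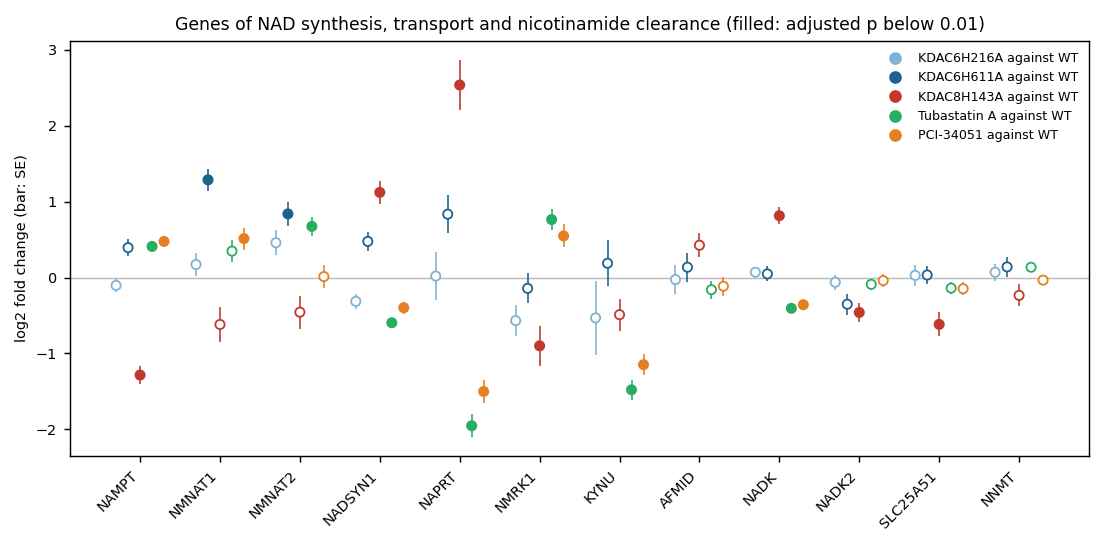
Log2 fold change against WT, with SE bars, of the 12 tested genes of NAD synthesis, transport and nicotinamide clearance in all 5 comparisons. Filled points passed an adjusted p of 0.01. NAPRT is at 2.54 for KDAC8H143A, -1.95 for Tubastatin A and -1.50 for PCI-34051.

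Other enzymes that consume NAD+ numbered 19, of which 17 were tested. In KDAC8H143A 4 rose and 7 fell (64.7%, beside 58.5% of all genes). After the correction 5 were higher and 5 lower there, where 7743 of 16101 genes were called. In KDAC6H611A 3 rose (17.6%, beside 12.3%), and in KDAC6H216A edgeR called 0, with 3 at an unadjusted p below 0.05. The inhibitors gave 7 higher and 5 lower with Tubastatin A and 8 higher and 4 lower with PCI-34051, 70.6% in each case beside 57.9% and 51.1% of all genes. SARM1, an NAD+ hydrolase, was called higher in 4 of the 5 comparisons, from 10.0 CPM in WT to 20.5 CPM in KDAC6H611A (1.05 ± 0.18, SE, adjusted p = 0.00143), 24.0 CPM in KDAC8H143A (1.3 ± 0.14, adjusted p = 1.07e-05), 22.3 CPM with Tubastatin A (1.03 ± 0.10, adjusted p = 3.38e-08) and 19.7 CPM with PCI-34051 (0.86 ± 0.11, adjusted p = 3.75e-06). In KDAC6H216A it was not called (0.25, adjusted p = 0.492). PARP1, the main poly-ADP-ribose polymerase, fell with Tubastatin A (-0.62 ± 0.05, adjusted p = 9.32e-10) and with PCI-34051 (-0.80 ± 0.06, adjusted p = 1.99e-09). TIPARP fell in KDAC8H143A (-0.73, adjusted p = 4.91e-05) and with both inhibitors. PARP10 rose in KDAC8H143A (1.38, adjusted p = 1.31e-04) and was at -0.16 after the correction.

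Of 19 reported regulators of sirtuin genes or proteins, 18 were tested. In KDAC8H143A 5 rose and 3 fell (44.4%, beside 58.5% of all genes). After the correction 2 were higher and 8 lower, where 7743 of 16101 genes were called. HIC1, a repressor of SIRT1 transcription, rose from 3.46 to 19.1 CPM (2.53 ± 0.23, SE, adjusted p = 3.67e-06) and remained higher after the correction (1.29, adjusted p = 5.15e-05). CCAR2, which binds and inhibits SIRT1, rose by 0.89 on the log2 scale and was not called after the correction (0.10). Before the correction, CTBP1 (1.21, adjusted p = 4.32e-05) and MYC (0.97, adjusted p = 7.89e-05) also rose there. The 3 that fell were FOXO3 (-0.68, adjusted p = 5.85e-05), ELAVL1 (-0.58, adjusted p = 1.46e-04) and CREB1 (-0.57, adjusted p = 0.00393). With the inhibitors 5 rose and 6 fell with Tubastatin A (61.1%, beside 57.9% of all genes) and 5 rose and 3 fell with PCI-34051 (44.4%, beside 51.1%), so these counts are near the background. RPS19BP1, an activator of SIRT1, fell from 56.2 CPM in WT to 28.1 CPM with Tubastatin A (-1.12 ± 0.08, adjusted p = 4.09e-10) and 25.8 CPM with PCI-34051 (-1.23 ± 0.07, adjusted p = 8.01e-11). FOXO1, also on this list, rose with both, by 0.82 and 0.91 on the log2 scale. In KDAC6H611A 1 of the 18 was called (5.56%, beside 12.3% of all genes), CREB1 (-0.50, adjusted p = 0.00282). In KDAC6H216A edgeR called 0 of 18, and 3 had an unadjusted p below 0.05.

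The reported mitochondrial substrates of SIRT3, SIRT4 and SIRT5 gave mixed directions. Of 23 listed, 20 were tested in KDAC8H143A, where 4 rose and 7 fell (beside 58.5% of all genes called). Among them were TFAM, the mitochondrial DNA packaging factor (-1.33, adjusted p = 1.02e-05), NDUFA9 of complex I (-1.06, adjusted p = 1.62e-04) and ACADVL, an acyl-CoA dehydrogenase (1.19, adjusted p = 6.40e-05). ACSS1 (3.07, adjusted p = 3.86e-04) and MLYCD (1.57, adjusted p = 1.41e-06) rose more than ACADVL. These values are without the GC content and length correction. After the correction 3 were higher and 8 lower, where 7743 of 16101 genes were called. With Tubastatin A 5 of 19 rose and 5 fell (52.6%, beside 57.9% of all genes), and with PCI-34051 3 rose and 5 fell (42.1%, beside 51.1%). In KDAC6H611A 2 of 19 rose (10.5%, beside 12.3%), and in KDAC6H216A edgeR called 0 of 19, with 2 at an unadjusted p below 0.05. Among 37 tested nuclear and cytoplasmic substrates or partners of SIRT1, SIRT2, SIRT6 and SIRT7, 9 rose and 11 fell in KDAC8H143A (54.1%, beside 58.5% of all genes). After the correction 5 were higher and 17 lower, where 7743 of 16101 genes were called. With Tubastatin A 10 rose and 18 fell (75.7%, beside 57.9%) and with PCI-34051 10 rose and 17 fell (73.0%, beside 51.1%). In KDAC6H611A 2 rose and 4 fell (16.2%, beside 12.3%), and in KDAC6H216A edgeR called 0 of 37, with 7 at an unadjusted p below 0.05. HIF1A fell in KDAC8H143A (-1.14, adjusted p = 5.59e-06), a call that was lost after the correction (-0.23, adjusted p = 0.0970). XRCC5, a DNA end-binding protein, fell there too (-1.23, adjusted p = 2.74e-06) and stayed lower (-0.98).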

How the data were processed

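RNA was depleted of ribosomal RNA and sequenced as paired reads. According to the submitters' processing notes and the study's methods, the authors trimmed reads with Trimmomatic 0.39, aligned them with Bowtie2 2.4.5, quantified genes with RSEM 1.3.3 on GRCh38 and used DESeq2 1.38.2. The annotation release is not given in the sources used here. The authors deposited expected counts per gene, which need not be whole (10.6% to 13.5% were not), and these were rounded here. Groups came from the labels, and 0 columns went unused.

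Each comparison was fitted on its 2 groups with edgeR 4.0.16 (R 4.3.3): filterByExpr, TMM scaling, the quasi-likelihood test and Benjamini-Hochberg adjustment over all tested genes, at an adjusted p below 0.01. SE was the log2 fold change divided by the square root of F. CPM values were TMM-scaled over all 22 libraries. The study calls its samples biological replicates. The floor of 3 counts covers counting error only, whereas SD and SE include the spread between samples. Positions, lengths and GC content came from GENCODE 44, which matched 56558 of 60675 gene IDs.

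The members and gene lists were chosen with earlier results of these data known. Named genes were all sirtuins, their nearest coding neighbours, the 3 genes of most like pattern, HDAC6 and HDAC8, and, from each list and comparison, up to 3 rises and 3 falls past the threshold plus abundant members, of which some are given in the text and some list members are not reported here. The alternatives were DESeq2 1.42.0, other scalings and filters, all 6 groups in 1 fit, coding genes only, mitochondrial rRNA and small RNAs removed, a per-library smooth correction for GC content and length (mgcv 1.9.3), a replicate block, thinning, leaving out each library and an adjusted p below 0.05. The fit was also run on simulated data, the outcome of which is not reported here.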

Additional observations from a re-analysis of the deposited data

Results flagged for a closer look

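SIRT6 in KDAC6H611A replicate 4 was at 22.7 CPM, far from the other 3 libraries of its group at 14.7 to 15.7 CPM. The gap to its nearest neighbour was 0.873 of the group's range, above the critical value of 0.829 for 4 samples in Dixon's test. This was 1 of 28 gene and group sets examined, and chance alone marks about 1 in 20 such sets. The same library had 0.173% mitochondrial rRNA and the highest SIRT7 of its group, 30.2 CPM, and their part in this value was not tested.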

How the results depend on the processing

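Counts of sirtuins called were within 1.5 times of those reported in 149 of 166 alternative fits. The 149 include every fit of KDAC6H216A against WT, KDAC6H611A against WT and KDAC6H611A against KDAC6H216A, where the count was 0 throughout. All 17 counts that moved belong to the other comparisons. For KDAC8H143A against WT, 2 were called with the GC content and gene length correction and 2 with the replicate block and that correction, in place of 4. Of all 16101 genes, 7743 and 7635 were called in these fits, in place of 9419. For KDAC8H143A against KDAC6H216A both settings also gave 2 in place of 4, and called 7085 and 7158 of 16369 genes in place of 8714. For Tubastatin A, 1 was called in place of 2 with all 6 groups in 1 fit, with the replicate block, with the block and the correction, and after thinning. In that order, these fits called 4607 of 18480, 7711 of 15246, 7587 of 15246 and 6879 of 13845 genes, where the reported fit called 8821 of 15246. For PCI-34051, 0 were called with all 6 groups in 1 fit (SIRT2 adjusted p = 0.0938, SIRT5 adjusted p = 0.0111), and 1 with the correction, with the replicate block, with both and after thinning. In that order, these fits called 4341 of 18480, 7874 of 15346, 7134 of 15346, 6980 of 15346 and 6261 of 13859 genes, where the reported fit called 7835 of 15346. Leaving out each library in turn gave 3 to 4 calls for KDAC8H143A, 2 to 3 for Tubastatin A, 1 to 2 for PCI-34051, 1 to 3 for KDAC8H143A against KDAC6H611A and 4 for KDAC8H143A against KDAC6H216A.

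Among single genes, 15 values changed sign where the reported or the alternative value passed the threshold. In KDAC8H143A against WT, the correction alone and with the block gave 0.053 and 0.035 for SIRT1, -0.80 and -0.80 for SIRT2 and -0.29 and -0.28 for SIRT6. Against KDAC6H611A they gave -0.71 and -0.72 for SIRT2 and -0.14 and -0.14 for SIRT6, and against KDAC6H216A -0.24 and -0.23 for SIRT6. Another 34 values lost their call and 7 gained one without a change of sign, and 940 changed neither. Scaling to the total count alone, which moved the median of all genes to 0.35 with Tubastatin A and 0.38 with PCI-34051, gave 0.25 and 0.30 for SIRT1 and, with PCI-34051, 0.35 for SIRT7. The cause was not tested.

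Deviations from the group means were correlated between samples of the 2 groups. In no comparison was r highest for the same replicate number in every pair, so the numbers were taken as names only. With the replicate block SIRT5 had a log2 fold change of 0.29 with each inhibitor (adjusted p = 0.0185 and 0.0308). Depth limits SIRT4, and the library of lowest total was WT replicate 1.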
